A study of Rattus norvegicus with 4 samples.

Results

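Gata3, 3 related GATA factor genes and 5 genes of the LDB1-LMO adaptor proteins were followed in INS-1 cells, a beta-cell-like line grown from an insulinoma of a NEDH rat, during stimulation of the cAMP pathway. The 9 genes (Gata2, Gata3, Gata4, Gata6, Ldb1, Ldb2, Lmo1, Lmo2 and Lmo4) were taken by gene symbol from 18645 named genes on Affymetrix rat gene arrays, and each was read by 1 probe set. The choice was made with results of these arrays known, because Gata3 was among the lowest genes after forskolin, so all differences with forskolin are given as descriptions without a test. The groups were cells given 10 µM forskolin, a plant diterpene that activates adenylyl cyclase, for 2 h, cells given the solvent DMSO alone (vehicle) for 2 h, cells given 10 µM forskolin for 16 h, and cells given vehicle for 16 h, all in RPMI medium with 10% serum. Each group had 1 array, so no difference has a replicate check and no p-value is given. Values are log2 signals after RMA, which corrects background, equalizes the arrays' distributions and summarizes the probes of a probe set, and a difference of 1 log2 unit is 2-fold.

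GATA factors are zinc-finger transcription factors that bind DNA at the letters GATA and direct the formation of many lineages. GATA3 is best known from T helper cells, sympathetic neurons and the inner ear, while GATA4 and GATA6 act in the early pancreas and other endoderm. LDB1 does not bind DNA itself. It dimerizes and holds proteins with LIM domains, either LIM-homeodomain factors such as ISL1, with which it maintains mouse beta cells, or the small LMO proteins, which bridge LDB1 to GATA and basic helix-loop-helix factors. LMO proteins compete with LIM-homeodomain factors for LDB1.

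Promoters of the 3 genes that were at least 2-fold from vehicle at both times are shown first, so that the letters bound by GATA factors and by their partners can be looked for in them. They are RefSeq windows of build GRCr8 from 250 bases before to 50 bases after the start of the gene, read along the gene. Capitals mark GATA motifs (GATA with A or T before it and A or G after it) and E-boxes (CANNTG, bound by basic helix-loop-helix factors) on either strand, and no capital run overlaps another. Gata3 lies at chr17:73553298-73553597 on the plus strand, Ldb1 at chr1:254833634-254833933 on the minus strand and Lmo1 at chr1:172603108-172603407 on the minus strand.
Gata3: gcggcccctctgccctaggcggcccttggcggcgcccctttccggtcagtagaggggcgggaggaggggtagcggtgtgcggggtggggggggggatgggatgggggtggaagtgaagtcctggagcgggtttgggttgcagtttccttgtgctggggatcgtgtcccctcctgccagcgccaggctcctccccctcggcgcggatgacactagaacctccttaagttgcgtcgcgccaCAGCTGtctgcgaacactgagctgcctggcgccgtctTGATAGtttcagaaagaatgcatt
Ldb1: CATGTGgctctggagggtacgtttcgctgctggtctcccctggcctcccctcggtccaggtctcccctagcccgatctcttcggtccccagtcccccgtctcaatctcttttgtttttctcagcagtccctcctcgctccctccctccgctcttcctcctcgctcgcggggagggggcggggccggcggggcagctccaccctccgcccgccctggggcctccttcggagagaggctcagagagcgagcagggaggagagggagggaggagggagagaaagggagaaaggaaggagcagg
Lmo1: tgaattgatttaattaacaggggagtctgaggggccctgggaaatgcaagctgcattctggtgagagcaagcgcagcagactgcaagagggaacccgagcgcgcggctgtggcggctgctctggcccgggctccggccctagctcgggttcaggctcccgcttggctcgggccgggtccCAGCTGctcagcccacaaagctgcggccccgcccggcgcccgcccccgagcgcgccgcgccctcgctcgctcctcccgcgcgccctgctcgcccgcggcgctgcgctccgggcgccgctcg

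The Gata3 window held 1 GATA motif, TGATAG, which begins 27 bases after the start, and 1 E-box, CAGCTG, which begins 11 bases before it. Lmo1 and Ldb1 had 1 E-box each and 0 GATA motifs. GATA motifs were present in 30.3% and E-boxes in 72.1% of all 33469 promoter windows of that length. Windows were matched for 6 of the 9 genes, all but Gata4, Ldb2 and Lmo2, and in these 6 neither the cAMP response element TGACGTCA nor its half-site TGACG occurred on either strand. The full element was present in 1.83% and the half-site, which it contains, in 21.2% of all windows. The 6 windows shared a high content of G and C, from 61.3% in Gata2 to 78.3% in Lmo4, where the median of all windows was 51.7% and the upper quartile 60.3%. They held 12 to 45 CG dinucleotides, against a median of 7 and an upper quartile of 19 over all windows. Gata6, Gata2 and Ldb1, with 12, 16 and 18, were under that quartile.

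The arrays carried the marks of INS-1 cells. All 12 beta-cell markers that could be matched, of 14 listed, reached the filter used to compare genes, a highest signal of at least 4.854, and the median of these markers was 8.98 and 8.62 on the forskolin arrays of 2 h and 16 h, against 9.02 and 8.96 on the vehicle arrays. Nkx6-1, a beta-cell transcription factor gene, reached the filter through its vehicle arrays alone, with 3.84 and 4.04 with forskolin and 5.43 and 4.87 with vehicle at 2 h and 16 h, and its forskolin signals were near background. Markers of other cells were mostly at the level of the 1153 negative control probe sets. Signals stayed at or under these controls' upper quartile on every array for 7 of 7 leukocyte and T-cell markers, 5 of 5 erythroid and mast-cell markers, 4 of 5 sympathetic and chromaffin markers and 3 of 4 endothelial markers. The same held for 5 of 7 acinar and duct markers, 3 of 5 fibroblast markers and 4 of 7 markers of other islet cells. Among the exceptions were the duct keratin gene Krt7 with signals of 8.15 to 8.46 and the endothelial adhesion gene Esam with 7.20 to 7.26. Signals of the glucagon gene Gcg, an alpha-cell marker, were 12.00 and 12.56 with forskolin and 11.76 and 11.95 with vehicle at 2 h and 16 h. The median of the negative controls lay between 3.22 and 3.39 and their upper quartile between 4.37 and 4.57, and signals in that range are called near background here. In a culture of one line, fewer cells that carry a transcript and less of it per cell cannot be told apart.

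Gata3 was lower with forskolin at both times. Its log2 signal was 3.33 with forskolin and 6.25 with vehicle at 2 h, and 4.76 with forskolin and 6.11 with vehicle at 16 h. Both vehicle arrays were high and alike, and the forskolin arrays were below them at both times. The difference was -2.92 at 2 h and -1.34 at 16 h, with the 16 h value at rank 66 from the lowest of the 9323 genes compared. At 2 h the forskolin signal was as low as the median negative control of its array, 3.39, and the full fold is therefore uncertain. Measured against these controls' upper quartile, 4.57, Gata3 was at least 3.20-fold below vehicle, a difference of -1.68, smaller in size than that of Lmo1. With low signals of all genes raised to the controls' upper quartile of their array, it ranked 9 from the lowest at 2 h and 50 at 16 h. At 16 h the forskolin signal was above the controls' upper quartile, 4.37, but under the filter of 4.854. Gata3 was 2.54-fold lower than vehicle there, and with so low a signal this fold is uncertain as well. The forskolin array of 16 h was 1.43 log2 units above that of 2 h, while the vehicle arrays differed by -0.14. The difference with forskolin was thus 1.57 units closer to 0 at 16 h, or 0.33 units closer with the low signal set at the controls' upper quartile, and this change between times was not tested.

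**Figure D1:**
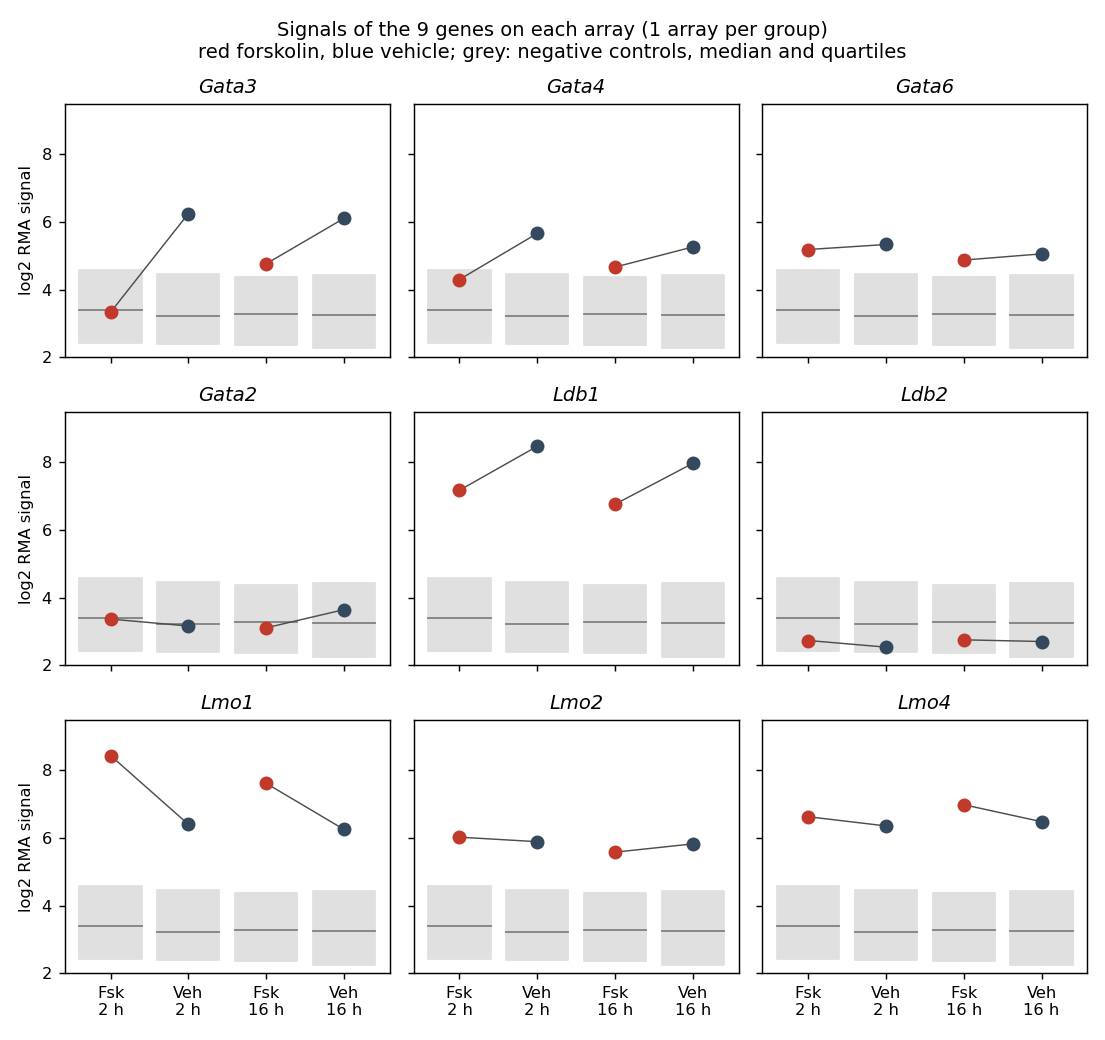
Log2 RMA signals (vertical axis) of the 9 genes on the 4 arrays (horizontal axis), with forskolin in red and vehicle in blue, lines joining the arrays of one time, and grey boxes giving the quartiles and median of the negative controls of each array. Gata3 is at the controls' median with forskolin at 2 h (3.33) and above their upper quartile with forskolin at 16 h (4.76), while Gata2 and Ldb2 stay within the boxes on all 4 arrays.

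Gata4, a regulator of endoderm and heart, was lower with forskolin as well. It had signals of 4.30 with forskolin and 5.66 with vehicle at 2 h, and of 4.67 with forskolin and 5.26 with vehicle at 16 h. The forskolin signal was the lower one at each time, and at 2 h it was within the range of the negative controls. The difference was -1.36 at 2 h, and Gata4 was at least 2.13-fold below vehicle against the controls' upper quartile, at rank 71 from the lowest with low signals of all genes raised in that way. At 16 h the difference was -0.60, rank 614 from the lowest as deposited and 586 with low signals raised. The vehicle arrays themselves differed by -0.40 for Gata4, more than the SD of 0.279 of that difference over the 500 genes nearest to it in signal.

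Gata6, which acts beside GATA4 in the early pancreas, did not share this size of difference. It had 5.19 with forskolin and 5.34 with vehicle at 2 h, and 4.88 with forskolin and 5.06 with vehicle at 16 h. All 4 signals lay within 0.46 log2 units of each other and above the controls' upper quartile. The differences of -0.15 and -0.18 were smaller than the -0.28 between the vehicle arrays. Gata2, a factor of blood stem cells and of neurons, was near background on all 4 arrays, with 3.37 with forskolin and 3.16 with vehicle at 2 h, and 3.11 with forskolin and 3.65 with vehicle at 16 h. No fold is given for it because no signal of it exceeded the controls' upper quartile.

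Ldb1, which encodes the adaptor that LMO and LIM-homeodomain proteins bind, was lower with forskolin by a like amount at both times. Its signal was 7.18 with forskolin and 8.48 with vehicle at 2 h, and 6.76 with forskolin and 7.97 with vehicle at 16 h. Both forskolin arrays were below both vehicle arrays, and all 4 signals were well above the negative controls. The differences were -1.30 (2.46-fold lower, rank 41 from the lowest) at 2 h and -1.21 (2.31-fold lower, rank 100) at 16 h. These ranks are from signals as deposited, and with low signals of all genes raised they were 29 and 82. For Ldb1 the vehicle arrays differed by -0.51, where the SD of that difference over the 500 genes nearest in signal was 0.229. Ldb2, its paralog, had signals of 2.74 with forskolin and 2.54 with vehicle at 2 h, and of 2.75 with forskolin and 2.71 with vehicle at 16 h, all below the median of the negative controls.

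Lmo1, an LMO adaptor that acts as an oncogene in human T-cell leukaemia and neuroblastoma, was the 1 member higher by 2-fold or more. It had 8.44 with forskolin and 6.41 with vehicle at 2 h, and 7.62 with forskolin and 6.26 with vehicle at 16 h. Both forskolin arrays were above both vehicle arrays, which lay 0.15 units apart. The difference was 2.03 at 2 h (4.10-fold higher, rank 43 from the highest) and 1.36 at 16 h (2.57-fold higher, rank 94), with all signals above the controls' upper quartile. With low signals of all genes raised, the ranks from the highest were 35 and 81. In human neuroblastoma GATA3 is known to activate LMO1. Relative to vehicle, Lmo1 was higher and Gata3 lower at both times here, and a link between these genes was not tested.

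The other LMO genes were nearer to vehicle. Lmo4, an adaptor known from neural and breast epithelial cells, had 6.63 with forskolin and 6.36 with vehicle at 2 h, and 6.99 with forskolin and 6.49 with vehicle at 16 h. Its differences of 0.27 and 0.50 compare with an SD of 0.261 between the vehicle arrays over the 500 genes nearest in signal. Lmo2, the bridge between LDB1 and GATA factors in blood and endothelial cells, had 6.03 with forskolin and 5.89 with vehicle at 2 h, and 5.58 with forskolin and 5.83 with vehicle at 16 h. Its differences of 0.13 and -0.24 were both smaller than the SD of 0.252 for genes of its signal.

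**Figure D2:**
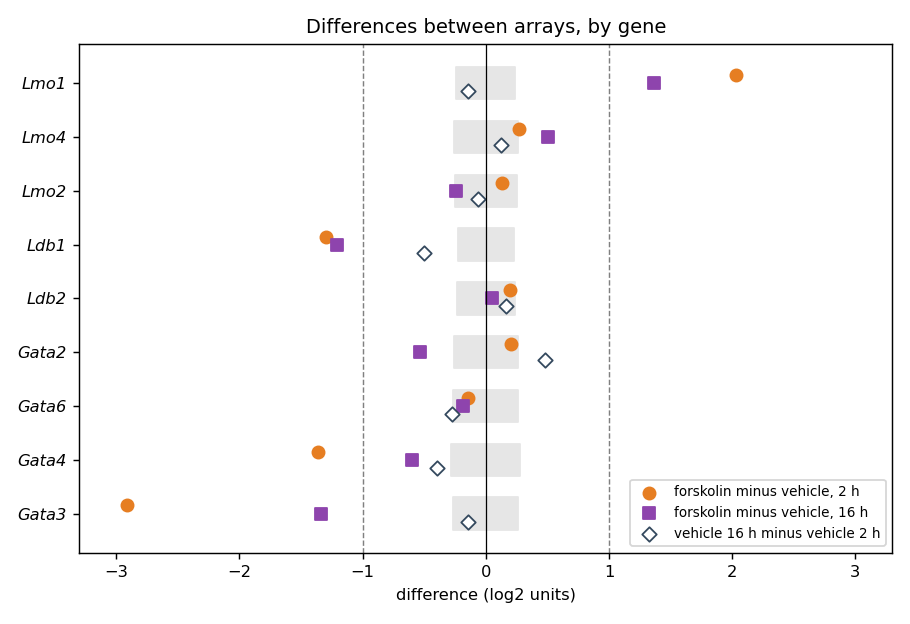
Differences in log2 units (horizontal axis) for each of the 9 genes: forskolin minus vehicle at 2 h (circles) and at 16 h (squares), and vehicle at 16 h minus vehicle at 2 h (open diamonds). Grey bars give the SD of the vehicle difference over the 500 genes nearest in signal, and dashed lines mark 2-fold. Gata3, Gata4 and Ldb1 lie beyond 2-fold on the low side and Lmo1 on the high side at 2 h, while no vehicle difference passes 2-fold.

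Counted by size alone, 3 of the 9 genes (Gata3, Gata4 and Ldb1) were lower by 2-fold or more with forskolin at 2 h, and 1 (Lmo1) was higher by that much. Over all 9323 compared genes, 1.41% were lower and 2.09% higher by the same measure. At 16 h Gata3 and Ldb1 were lower and Lmo1 higher by 2-fold or more, where 2.02% of compared genes were lower and 2.33% higher. Since the set was chosen with these contrasts known, nothing is read from the counts beyond the values themselves. The median difference of the 9 was 0.13 at 2 h and -0.24 at 16 h, against -0.01 and 0.00 over all 18645 genes without a filter. Of the 9 genes, 7 reached the filter, Gata3 and Gata4 through their vehicle arrays alone, and Gata2 and Ldb2 did not. The 2 h median has no stable sign, since over these 7 it was -0.15, beside -0.10 for all compared genes. Between the vehicle arrays, differences of the 9 ran from -0.51 to 0.48 and 0 of the 9 reached 2-fold, which 0.0322% of compared genes did on the low and 0.0858% on the high side.

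**Figure D3:**
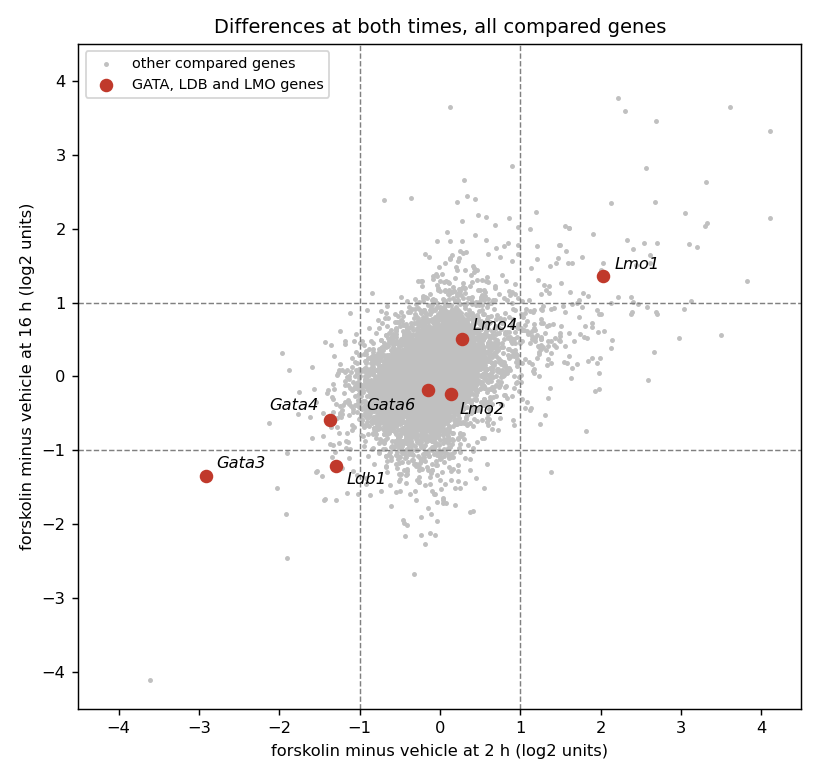
Forskolin minus vehicle in log2 units at 2 h (horizontal axis) and at 16 h (vertical axis) for the 9323 compared genes, each time against its own vehicle array, with the 7 compared GATA, LDB and LMO genes in red and dashed lines at 2-fold. Gata3 (-2.92 and -1.34) and Ldb1 (-1.30 and -1.21) lie beyond 2-fold on the low side at both times, Lmo1 (2.03 and 1.36) on the high side.

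Genes whose proteins work with LDB1, LMO or GATA factors, and genes known as their targets, were taken from 6 lists of 59 genes, of which 56 were matched and 25 reached the filter. By 2-fold or more, 1 of these 25 was higher and 1 lower at 2 h, and 0 were higher and 2 lower at 16 h. Over all compared genes, 2.09% were higher and 1.41% lower at 2 h, and 2.33% higher and 2.02% lower at 16 h. The median difference of the 25 was -0.02 at 2 h and -0.24 at 16 h, where the median of all compared genes was -0.10 and 0.02. At 16 h 21 of the 25 were below vehicle, compared with 47.2% of all compared genes. Beta-cell markers, of which Ins1, Ins2, Mafa and Slc2a2 are also among the 25, had 11 of 12 below vehicle at 16 h and a median of -0.35, and their part in the values of the 25 was not tested. At 2 h it was 13 of the 25, compared with 63.4%, and the sign of the 2 h median depended on the scaling (0.04 after cyclic loess).

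Among the LIM-homeodomain partners of LDB1, 3 of 12 reached the filter. Isl1, which is needed to form and maintain islet cells, had 8.69 with forskolin and 9.28 with vehicle at 2 h, and 8.54 with forskolin and 9.20 with vehicle at 16 h. Its differences of -0.59 and -0.66 compare with -0.08 between the vehicle arrays. Lhx8, known from forebrain neurons and oocytes, had differences of -0.75 at 2 h and -0.05 at 16 h, and the vehicle arrays differed by -0.52. Lmx1b, a factor of limb and midbrain development, had 0.03 and -0.22. None of the 3 was 2-fold from vehicle.

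Of the other partners in LDB1 complexes, 6 of 10 were compared. Ssbp2, whose product binds LDB1 and protects it from degradation, had 9.47 with forskolin and 9.37 with vehicle at 2 h, and 8.40 with forskolin and 9.44 with vehicle at 16 h. Only the 16 h forskolin array was low, with a difference of -1.05 (2.06-fold lower). Ssbp4, of the same family, had differences of 0.30 and -0.25, and Tcf3, which encodes the basic helix-loop-helix E proteins, -0.38 and -0.28. Rlim, a ubiquitin ligase known to target LDB1, had differences of 0.05 and 0.25. Lyl1, a helix-loop-helix partner of LMO2 in blood cells, differed by 1.07 at 2 h, but its signals of 3.91 with forskolin and 2.83 with vehicle were both within the range of the negative controls.

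The list of GATA cofactors and other genes with GATA-type fingers had 8 genes, of which 5 were compared. It also held the LMO gene Lmo3, which belongs to neither class and was not matched. Gatad2b, a subunit of the NuRD repressor complex, had 6.71 with forskolin and 7.59 with vehicle at 2 h, and 6.45 with forskolin and 6.96 with vehicle at 16 h. The differences were -0.88 and -0.50, beside -0.63 between the vehicle arrays. Gatad1 had differences of -0.53 and -0.25, the repressor gene Trps1 -0.07 and -0.26, and the GATA4 cofactor gene Zfpm2 0.08 and -0.15. None reached 2-fold.

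Most genes known as targets of GATA2 or GATA3 in other tissues gave no signal to compare: 10 of 12 did not exceed the controls' upper quartile on any array, among them the T helper cytokine genes Il4, Il5 and Il13 and the catecholamine synthesis genes Th and Dbh. Kit, the stem cell factor receptor gene, was the 1 that reached the filter, with 9.89 with forskolin and 8.97 with vehicle at 2 h, and 9.21 with forskolin and 8.93 with vehicle at 16 h. It was higher with forskolin by 0.92 and 0.28. Of the GATA4 or GATA6 targets, 2 of 8 were compared. Hnf4a, a nuclear receptor gene of endoderm, had differences of -0.88 and -0.47, and Foxa2, a pioneer factor gene of endoderm, of 0.38 and 0.04.

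Islet genes known from mice to depend on Isl1 or Ldb1 differed from one another, and 8 of 9 were compared. Neurod1, a helix-loop-helix activator of insulin transcription, had 8.18 with forskolin and 9.33 with vehicle at 2 h, and 7.41 with forskolin and 8.99 with vehicle at 16 h, so the difference was -1.16 and then -1.58. Mafa, another insulin gene activator, differed by 1.31 at 2 h and by -0.52 at 16 h. Slc2a2, the GLUT2 glucose transporter gene, had differences of 0.12 and -0.55, and Glp1r, the incretin receptor gene, of -0.14 and 0.45. At 16 h 7 of the 8 were below vehicle, with a median of -0.29. Of all compared genes 47.2% were below vehicle at 16 h, with a median of 0.02. Ins1, Ins2, Mafa and Slc2a2, which are among the 8, are also beta-cell markers. Of these markers 11 of 12 were below vehicle at 16 h, with a median of -0.35.

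**Figure D4:**
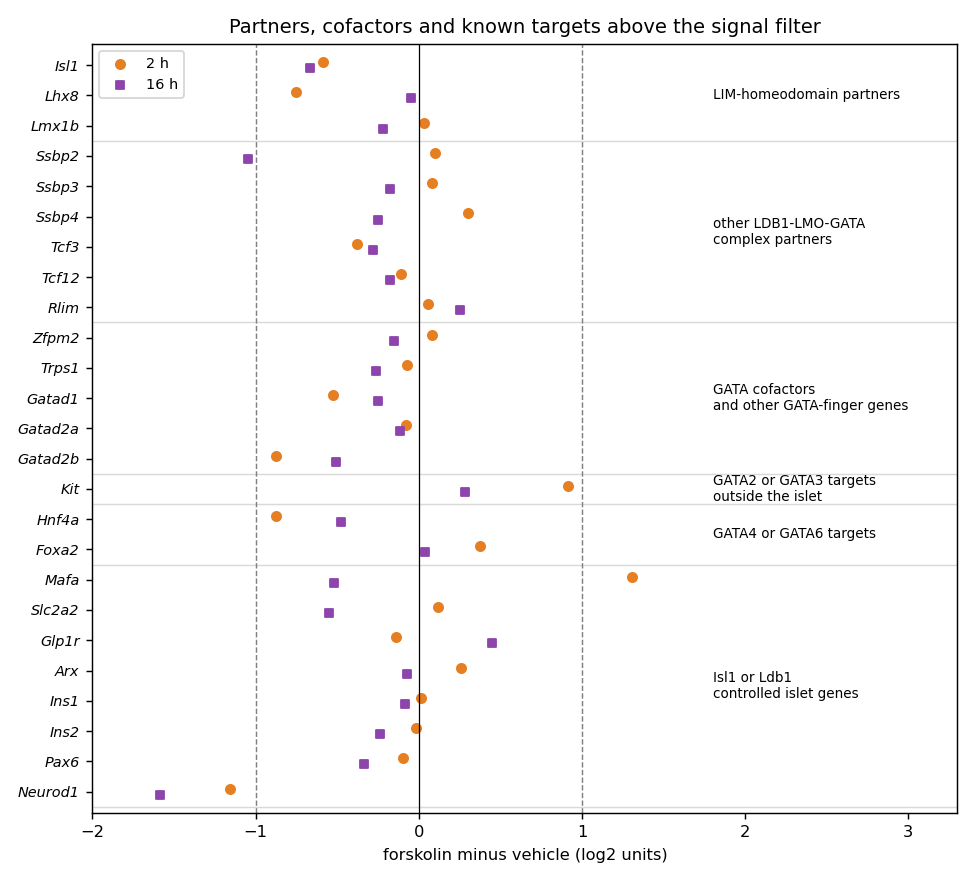
Forskolin minus vehicle in log2 units (horizontal axis) at 2 h (circles) and 16 h (squares) for the 25 partner, cofactor and target genes above the signal filter, grouped by list, with dashed lines at 2-fold. Neurod1 is beyond 2-fold on the low side at both times, Ssbp2 (-1.05) at 16 h, and Mafa (1.31) is beyond 2-fold on the high side at 2 h.

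The 5 genes whose pattern over the 4 arrays was most like that of Gata3 were F3, Klhl23, Adora2b, Grb7 and Senp7. Likeness was the Euclidean distance between log2 signals centred on each gene's own mean, among the 9323 compared genes. F3, the tissue factor gene, was closest, at a distance of 0.750, with 5.20 with forskolin and 7.33 with vehicle at 2 h, and 6.61 with forskolin and 7.24 with vehicle at 16 h. Klhl23 lay at a distance of 0.891 with differences of -2.02 and -1.51, and Adora2b, an adenosine receptor gene that couples to adenylyl cyclase, at 0.964 with -1.91 and -1.04. With forskolin at 2 h Adora2b had 4.37, under the controls' upper quartile of 4.57, so the size of its 2 h difference is uncertain. Distances used signals as deposited, also the Gata3 signal near background at 2 h. Grb7 and Senp7 followed at 1.02 and 1.09. In each of these 5 the difference was smaller in size at 16 h than at 2 h, as for Gata3, which the choice by likeness favours.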

How the data were processed

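Gene expression was measured on 4 Affymetrix rat gene arrays, 1 per group. The authors deposited log2 signals at gene level, made with RMA per the file headers. Affymetrix Expression Console 1.1.1 is named in the submitters' processing notes. RMA can compress differences near background and at very bright signals. The genes and lists were chosen with earlier results of these data known.

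Tables of both times were joined by probe set. Of 29214 probe sets, 20411 carried 1 symbol, brought up to date through RefSeq names (14570 by accession, 2834 by symbol, 1127 by synonym, 1880 unchanged). A gene was read by its probe set of highest mean. A gene was compared if its highest signal reached 4.854, the median of that quantity, which 26.8% of negative controls would also pass. Differences are forskolin minus vehicle of the same time, and counts use a 2-fold threshold. In each list, genes named were up to 4 compared genes with the largest differences and any at 2-fold, and 5 genes nearest to Gata3. Folds called "at least" set low signals to the negative controls' upper quartile on their array. The counting step was checked on known changes added to a vehicle array, and the likeness step on a shifted copy of Gata3. No noise was added, so these runs check the code only. Alternatives used limma 3.58.1 in R 4.3.3 for normalization only. Of the listed genes, Zfpm1, Lmo3, Pdx1, G6pc2, Pecam1, Kdr and 1 more are not analysed here. Pearson coefficients between arrays were 0.985 to 0.993 across probe sets. With 1 array a group, the precision of a difference is unknown.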

Additional observations from a re-analysis of the deposited data

Results flagged for a closer look

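Several differences with forskolin had one sign at 2 h and the opposite sign at 16 h, each on 1 array a group. Whether the times differ was not tested. Among the 9 genes these were Gata2, with 0.21 at 2 h and -0.54 at 16 h from signals near background, and Lmo2, with 0.13 and -0.24. Among partners of the LDB1 complexes, Ssbp2 had 0.10 at 2 h and -1.05 at 16 h, Ssbp4 had 0.30 and -0.25, Lyl1 had 1.07 and -0.13 near background, and Lmx1b had 0.031 and -0.22. Zfpm2, a GATA cofactor gene, had 0.083 at 2 h and -0.15 at 16 h. Of the islet genes, Mafa had 1.31 at 2 h and -0.52 at 16 h, Slc2a2 had 0.12 and -0.55, and Glp1r had -0.14 and 0.45.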

How the results depend on the processing

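No pairing by replicate was possible because the labels give no replicate numbers and each group had 1 array. With 1 array no replicate could be left out. A fit of treatment with time as a block over the 4 arrays, with 1 residual degree of freedom, could be made and was not run, since the genes were chosen with these contrasts known. Cyclic loess, a further quantile normalization and raising of low signals to the negative controls' upper quartile gave 54 differences of the 9 genes. Of these, 51 moved by at most 0.252 log2 units, the SD between the vehicle arrays over compared genes. The other 3 came from raising low signals, which changed Gata3 at 2 h to -1.68, Gata4 at 2 h to -1.09 and Gata2 at 16 h to -0.074. Some of the 51 could not move, since raising leaves signals above that quartile as they are. This held for Gata6, Ldb1, Lmo1, Lmo2 and Lmo4 at both times, and for Gata3 and Gata4 at 16 h. The mean of probe sets and the series matrix could not change any difference of the 9 genes, as each gene has 1 probe set and both tables hold the same signals. Over all alternatives Gata3 ran from -2.92 to -1.68 at 2 h and from -1.40 to -1.34 at 16 h, Ldb1 from -1.30 to -1.19 and from -1.23 to -1.21, and Lmo1 from 2.03 to 2.16 and from 1.34 to 1.36. Cyclic loess moved the median of compared genes at 2 h from -0.10 to 0.00. The genes at least 2-fold lower at 2 h, 131 as deposited beside 195 higher, were then 81 beside 242 higher, and after a further quantile normalization 86 beside 222 higher. In the upper 33.3% of genes by signal 153 were higher and 63 lower at 2 h, and 153 higher and 121 lower at 16 h. At 1.5-fold, 436 genes were higher and 815 lower at 2 h, and 716 higher and 632 lower at 16 h. Of the partner and target genes, 2 were higher at 2 h at 1.5-fold, or without the filter, and 5 were lower at 1.5-fold. Without the filter the median of LIM-homeodomain partners was 0.17 at 2 h and 0.13 at 16 h, that of GATA2 or GATA3 targets 0.12 at 2 h and that of GATA4 or GATA6 targets 0.13 at 2 h, as genes near background entered. In that upper part the GATA cofactor median was -0.53 at 2 h and that of GATA4 or GATA6 targets 0.38 at 2 h and 0.039 at 16 h, with fewer genes.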
